A study of Arabidopsis thaliana with 6 samples.

Results

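Glutathione S-transferase genes were followed in rosette leaf RNA of Arabidopsis thaliana (Columbia), in wild type (WT) and in ibm1-3, a mutant allele of IBM1, the gene of a jumonji histone demethylase. The 50 members, of 22446 genes in the table of high light pair 1, are those whose deposited description names a glutathione S-transferase, with AT5G17220 left out. Each genotype gave 1 library in low light, from plants 40 days old, and 2 libraries after a high light treatment lasting 48 hours, from plants 30 days old, so light and age changed together and levels were compared between genotypes only, within a light condition. All plants were grown in long days, and the labels say neither how many plants a library held nor whether numbered libraries came from separate plants. P-values therefore cover the variation among these libraries alone, and that variation may be technical.

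Glutathione S-transferases join the tripeptide glutathione to reactive or foreign molecules, which are then moved into the vacuole, and some carry ligands, isomerize substrates or reduce peroxides. In plants the tau and phi classes are the largest and hold many genes induced by stress, safeners and pathogens, often as tandem copies, while zeta and theta enzymes have relatives in animals. Of the 50 members 26 were of the tau class (GSTU), 11 phi (GSTF), 3 theta (GSTT) and 2 zeta (GSTZ), and 1 each was of the lambda, TCHQD and MAPEG (microsomal) classes. The other 5, named by locus, stood outside the class lists. No dehydroascorbate reductase (DHAR) carried that description, nor did the lambda genes GSTL1 and GSTL2, so these relatives are given apart from the members.

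The windows upstream of the genes were searched because several members are known targets of TGA factors, bZIP proteins that bind TGACG. The 250 bases before each RefSeq gene start (TAIR10.1) were read for all 50 members. TGACG, on either strand, occurred in 16 of them (32.0%) against 18.6% of 27443 windows of protein-coding genes. The W-box core TTGAC, bound by WRKY factors, occurred in 28 (56.0%) against 44.9%, and the G-box CACGTG in 5 (10%) against 6.5%. TTGAC and TGACG can overlap as TTGACG. A match is a description of the letters in the window. The 4 windows shown belong to GSTU11 (chr1:26338819-26339068, reverse strand), GSTF9 (chr2:13138632-13138881, forward strand), GSTF10 (chr2:13141040-13141289, forward strand) and GSTU16 (chr1:21936028-21936277, forward strand). They are shown because GSTU11 and GSTF9 had the highest and GSTU16 nearly the lowest fold change in high light, and because GSTF10, chosen after its values were seen, is the tandem neighbour of GSTF9. Each is written 5′ to 3′ on the strand of its gene, with TGACG or its reverse complement in capitals. GSTU11 and GSTF10 hold 1 match each, and the other windows shown hold none. RefSeq and deposited coordinates were the same for 36 of the 50 members. The GSTF9 window ends at 13138881 while the deposited gene starts at 13138997, and the bases between were not searched. The window of GSTU18, the member with the lowest fold change, lies within the overlapping neighbour GSTU17.
GSTU11: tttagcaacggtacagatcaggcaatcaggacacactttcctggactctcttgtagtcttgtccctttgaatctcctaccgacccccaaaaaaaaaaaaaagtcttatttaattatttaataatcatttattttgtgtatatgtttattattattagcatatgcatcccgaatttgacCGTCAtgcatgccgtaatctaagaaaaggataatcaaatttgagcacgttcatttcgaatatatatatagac
GSTF9: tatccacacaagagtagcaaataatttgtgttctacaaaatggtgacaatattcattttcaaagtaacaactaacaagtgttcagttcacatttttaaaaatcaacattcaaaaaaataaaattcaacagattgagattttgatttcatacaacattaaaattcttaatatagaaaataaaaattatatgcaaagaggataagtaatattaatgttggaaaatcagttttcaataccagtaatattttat
GSTF10: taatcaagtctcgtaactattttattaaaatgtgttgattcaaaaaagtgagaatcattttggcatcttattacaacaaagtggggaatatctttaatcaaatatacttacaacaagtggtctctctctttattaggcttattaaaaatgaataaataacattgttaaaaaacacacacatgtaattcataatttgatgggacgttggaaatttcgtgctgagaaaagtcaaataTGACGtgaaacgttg
GSTU16: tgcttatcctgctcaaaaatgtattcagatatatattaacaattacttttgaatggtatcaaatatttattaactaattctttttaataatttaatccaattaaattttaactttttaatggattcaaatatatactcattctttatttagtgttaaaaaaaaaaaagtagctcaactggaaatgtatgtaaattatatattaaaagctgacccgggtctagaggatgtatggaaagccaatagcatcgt

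Estimated fragments of high light pair 1 summed to 12121246 in WT and 12502408 in ibm1-3, with no depth given for pair 2. The low light libraries held 15425082 reads for WT and 13099267 for ibm1-3. IBM1 itself had 13.8 and 8.34 FPKM in the WT against 17.6 and 7.46 FPKM in the ibm1-3 high light libraries, with a log2 change of 0.09 ± 0.13 (SE over 2 libraries per genotype) that did not pass limma (adjusted p = 0.526), and it had 643 and 399 reads in low light. The transcript thus did not check the genotype of the high light libraries, and directions below are those of the libraries labelled ibm1-3. Mesophyll markers (RBCS1A, LHCB1.3, CA1) were abundant, as in leaf, and all 3 fell, with summed levels of 10879 and 21800 FPKM in WT against 2049 and 4775 FPKM in ibm1-3 after high light and 81896 against 26424 reads in low light. After high light, of 4 guard cell markers 2 rose and 2 fell, of 3 phloem markers 1 rose, and both vessel markers rose. Among all genes tested 49.2% rose and 26% fell. With size factors 1 guard cell marker was higher and 2 lower, 1 phloem marker was higher and 1 lower, and 1 vessel marker was higher. The shares of all genes were then 35.4% higher and 38.7% lower. In low light the guard cell markers also went different ways. GC1 had 246 reads in WT and 62 in ibm1-3, and KAT1 had 168 and 375. Both had risen in high light as deposited, though KAT1 did not pass with size factors. FAMA had 515 and 461 reads and MYB60 had 107 and 82. The vessel marker XCP2 had 118 and 17 reads, and XCP1 had 15 in WT and was listed at 0 in ibm1-3. The flower markers AG and PI together had between 0.53 and 1.75 FPKM per high light library, and none of the 3 root markers had a value to compare. The clock genes CCA1 and LHY had log2 changes of -4.71 and -4.12 after high light and stood at log2 ratios of -0.03 and 0.03 in low light. The part of these differences in the results below was not tested, and in bulk tissue fewer cells of a type and less RNA per cell cannot be told apart.

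After high light, the members with the highest fold changes were the low tau gene GSTU11 and the abundant phi genes GSTF9 and GSTF10, and those with the lowest were the tau genes GSTU18 and GSTU16. Summed over the 50 members, the level was 3957 FPKM in WT and 5786 FPKM in ibm1-3 in pair 1, and 5459 and 7239 FPKM in pair 2. The libraries labelled ibm1-3 were thus 1.46 and 1.33 times their WT partners, and 1.19 and 1.03 times with size factors (median-of-ratios scaling, under which all genes had a median log2 change of -0.03 in place of 0.25). Phi genes carried most of the sum, from 2216 to 3803 FPKM in pair 1 and from 3661 to 5131 FPKM in pair 2. With size factors the phi ratios were 1.40 and 1.09. GSTF2 ran against the sum of the 50 members: without it, the other 49 stood at 1.79 and 1.78 times WT (1.46 and 1.39 with size factors). Tau genes rose less in sum, from 929 to 1162 FPKM and from 970.5 to 1235 FPKM, and with size factors their ratios were 1.02 and 0.99.

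**Figure D1:**
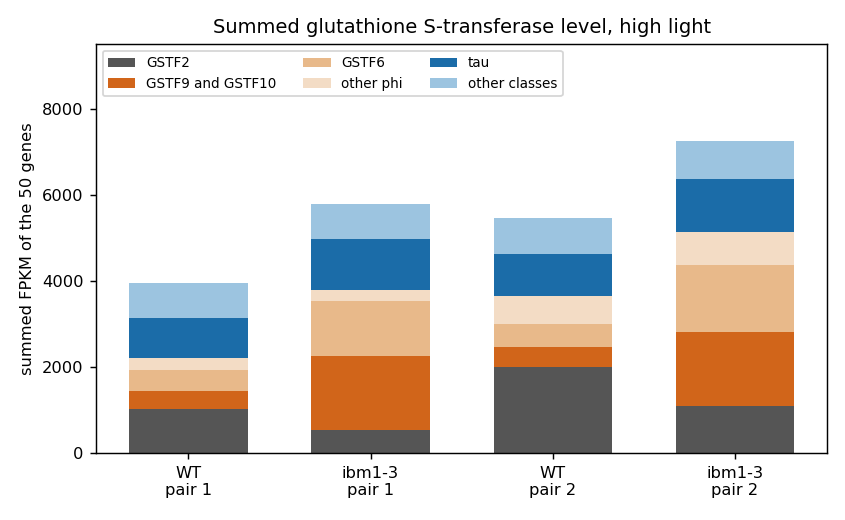
Summed FPKM of the 50 genes in each high light library, stacked by gene or class, bars from 0. GSTF9 and GSTF10 take a larger share and GSTF2 a smaller share in both ibm1-3 libraries, and the whole bar is higher in ibm1-3 within each pair (5786 against 3957 and 7239 against 5459 FPKM).

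Limma called 31 of the 44 members tested at a false discovery rate of 0.05 (70.5%, against 75.2% of all 17399 genes). Higher in ibm1-3 were 21 (47.7% against 49.2%) and lower 10 (22.7% against 26%). The 21 include GSTF5 and GSTU15, which reached the minimum of 1 FPKM in ibm1-3 libraries only. At least 2-fold, 7 were higher (15.9% against 19%) and 2 lower (4.55% against 9.48%). These shares lay near or below those of all genes. With size factors 17 were higher (38.6% against 35.4%) and 18 lower (40.9% against 38.7%). The members' median log2 fold change was 0.11, beside 0.25 for all genes, and -0.14 beside -0.03 with size factors. All 31 that passed had the same direction in both pairs. With the pairs as blocks, disagreement between them is the residual of the fit, so this count is no separate support. The phi class held 5 risers, 3 that fell and 2 without a call, and the tau class 11, 5 and 5. With size factors 5 phi genes were higher and 4 lower, and 9 tau genes were higher and 10 lower. The 6 members not tested (GSTU2, GSTU12, GSTU22, GSTU25, GSTU26 and GSTF13) reached at most 1.05 FPKM in any library.

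GSTU11 (AT1G69930; chromosome 1, 26337481 to 26338818, reverse strand, TAIR10 coordinates as deposited), a tau enzyme, had the highest fold change of the members. It had 2.45 and 2.62 FPKM in WT against 22.2 and 22.0 FPKM in ibm1-3. The log2 change was 2.71 ± 0.10 (SE of the limma fit, adjusted p = 4.13e-07). Both ibm1-3 libraries lay far above both WT libraries, and GSTU11 was the only member to pass in all 4 fits with a library left out. Its tandem neighbour GSTU12 stayed at or below 0.96 FPKM in every library.

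GSTF9 and GSTF10 (AT2G30860 and AT2G30870; chromosome 2, 13138997 to 13140245 and 13141290 to 13142676, both on the forward strand) are phi genes, candidates for a step of glucosinolate synthesis, and GSTF10 is also known as ERD13 from its response to dehydration. GSTF9 had 218 and 262 FPKM in WT against 1002 and 1001 FPKM in ibm1-3, giving a log2 change of 2.06 ± 0.08 (adjusted p = 3.91e-07). GSTF10 had 196 and 201 FPKM in WT against 720.2 and 717 FPKM in ibm1-3, a change of 1.85 ± 0.06 (adjusted p = 1.86e-07). For both genes the ibm1-3 libraries were close to each other and clear of the WT libraries. The pair shares 77.6% of coding bases and no run of 50 bases. GSTF9 lost its call without WT replicate 1 (adjusted p = 0.0559), and GSTF10 without WT replicate 1 (0.0579) or 2 (0.0533).

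GSTF6 (AT1G02930; chromosome 1, 661309 to 662456), which takes part in camalexin synthesis, was among the most abundant members. It had 499 and 533 FPKM in WT against 1261 and 1552 FPKM in ibm1-3, giving a log2 change of 1.44 ± 0.07 (adjusted p = 1.77e-06; 0.0533 to 0.15 with a library left out). GSTF7, its neighbour and close copy with 94.3% of coding bases in common, had 147 and 326 FPKM in WT against 198 and 543 FPKM in ibm1-3. The change of GSTF7 was 0.58 ± 0.08 (adjusted p = 0.000389; 0.12 to 0.995 with a library left out). Within each pair ibm1-3 was higher, but the GSTF7 groups overlap across pairs. The fragments of both were split in fractions by the authors' counting, so the division between them is uncertain. Without ibm1-3 replicate 2 GSTF7 turned to -0.14.

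GSTU20 and GSTU19, tandem tau genes, both rose. GSTU20 (AT1G78370; chromosome 1, 29484120 to 29485389), which binds the jasmonate-conjugating enzyme FIN219/JAR1, had 41.3 and 47.8 FPKM in WT against 113 and 138 FPKM in ibm1-3, a change of 1.47 ± 0.06 (adjusted p = 5.98e-07; 0.0886 and 0.0634 without WT replicates 1 and 2). GSTU19, a safener-induced enzyme active on foreign compounds, had 119 and 139 FPKM in WT against 163 and 198 FPKM in ibm1-3, a change of 0.48 ± 0.06 (adjusted p = 0.000166; 0.399 to 0.647 with a library left out). In neither gene did the groups overlap. GSTU13, which acts in indole glucosinolate metabolism, had 71.9 and 89.1 FPKM in WT against 137 and 178 FPKM in ibm1-3, a change of 0.96 ± 0.06 (adjusted p = 4.33e-06; 0.0952 to 0.297 with a library left out).

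Low members also rose. GSTF5 had 0.26 and 0.35 FPKM in WT against 2.90 and 3.79 FPKM in ibm1-3, a change of 1.73 ± 0.15 (adjusted p = 3.27e-05), which rested on 3 against 28 estimated fragments in pair 1. GSTU6 had 0.99 and 1.09 FPKM in WT against 2.65 and 3.99 FPKM in ibm1-3, a change of 1.07 ± 0.16 (adjusted p = 0.000555). GSTU15 had 0.29 FPKM and 0 in WT against 1.42 and 1.03 FPKM in ibm1-3, a change of 0.96 ± 0.16 (adjusted p = 0.00116), with 3 against 15 fragments in pair 1. Of the 50-base runs of the GSTU6 transcript 27.18% also occur in other RefSeq transcripts on either strand, most of all that of AT2G29430. These 3 genes were near the limit of detection in WT, where a pseudocount of 1 understates a change. GSTU8 had 3.29 and 3.60 FPKM in WT against 7.27 and 7.88 FPKM in ibm1-3, a change of 0.95 ± 0.12 (adjusted p = 0.000188; 0.0855 to 0.181 with a library left out). GSTF5 and GSTU15 reached 1 FPKM in the ibm1-3 libraries alone, so they were tested only because they were high there. Their calls are therefore no support for a rise, and without an ibm1-3 library neither was tested. Without WT replicates 1 and 2 GSTF5 had log2 changes of 1.68 and 1.78, and GSTU15 of 1.15 and 0.78. GSTU6 lay between 0.84 and 1.29 with a library left out.

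**Figure D2:**
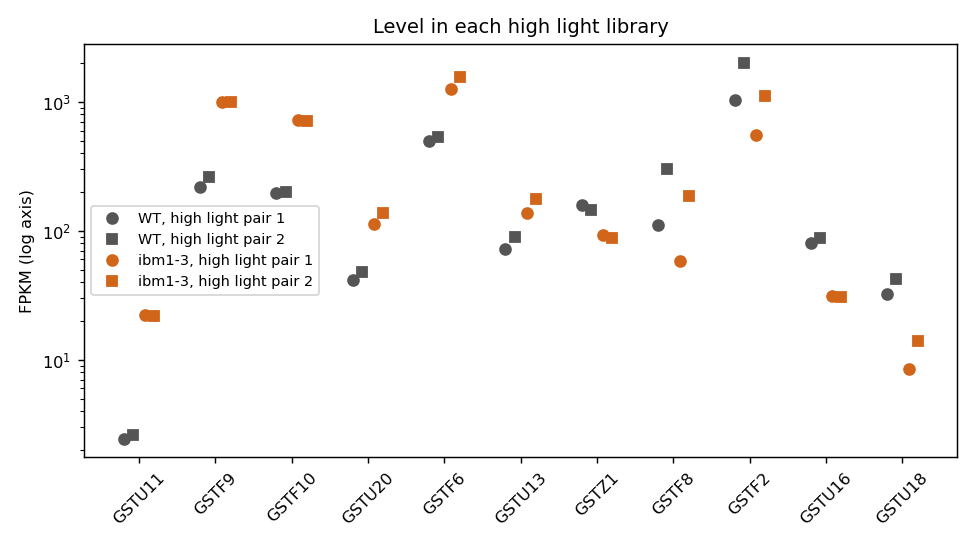
FPKM (log axis) of 11 members in the 4 high light libraries, circles for pair 1 and squares for pair 2, WT in grey and ibm1-3 in orange. GSTF9 moved from 218 and 262 to 1002 and 1001 FPKM without overlap, while for GSTF2 and GSTF8 the ibm1-3 point lies below its WT partner in each pair and the groups overlap.

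GSTU18 and GSTU16 were the 2 members that were at least 2-fold lower. GSTU18 (AT1G10360; chromosome 1, 3395551 to 3396953, reverse strand) had 32.2 and 42.4 FPKM in WT against 8.44 and 14.1 FPKM in ibm1-3, and fell by 1.67 ± 0.09 on the log2 scale (adjusted p = 2.61e-06; 0.0922 without WT replicate 2). GSTU16 (AT1G59700; chromosome 1, 21936278 to 21938001, forward strand) had 80.4 and 87.4 FPKM in WT against 31.0 and 30.6 FPKM in ibm1-3, and fell by 1.42 ± 0.07 (adjusted p = 1.15e-06; 0.0626 and 0.0807 without WT replicates 1 and 2). In both, every ibm1-3 library lay below every WT library. GSTU17 (also ERD9), which acts in light signalling, overlaps GSTU18 by 71 bases. It had 21.2 and 44.2 FPKM in WT against 18.5 and 34.9 FPKM in ibm1-3, a change of -0.26 ± 0.07 (adjusted p = 0.0151) with overlapping groups. Left-out libraries gave GSTU17 adjusted p-values from 0.352 to 0.839, and its sign turned without WT replicate 2 (0.26) and without ibm1-3 replicate 1 (0.18).

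GSTF2 and GSTF8 fell within each pair. GSTF2 (AT4G02520; chromosome 4, 1110343 to 1112033, reverse strand), which binds camalexin and other indole compounds, was the most abundant member in WT and on average over the 4 libraries, while GSTF6 was above it in both ibm1-3 libraries. GSTF2 had 1029 and 2014 FPKM in WT against 550 and 1107 FPKM in ibm1-3. It fell by 0.88 ± 0.07 (adjusted p = 1.22e-05). GSTF8, known for its stress-responsive promoter, had 111 and 304 FPKM in WT against 57.9 and 188 FPKM in ibm1-3, and fell by 0.81 ± 0.07 (adjusted p = 3.2e-05). Pair 2 was higher than pair 1 in both genotypes, so the groups overlap and the calls rest on the comparison within pairs. Left-out libraries gave adjusted p-values from 0.115 to 0.723 for GSTF2 and from 0.0652 to 0.982 for GSTF8, whose value without ibm1-3 replicate 1 was 0.030. Of the 50-base runs of the GSTF2 transcript 53.09% also occur in other RefSeq transcripts on either strand, most of all that of AT4G02510. The strand setting of the counting is not given in the sources used here, so whether reads of these genes were mixed is not known.

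GSTZ1 (AT2G02390), the zeta enzyme that acts as maleylacetoacetate isomerase in tyrosine breakdown, had 158 and 146 FPKM in WT against 92.3 and 87.6 FPKM in ibm1-3. It fell by 0.75 ± 0.06 (adjusted p = 1.41e-05; 0.259 to 0.343 with a library left out), with no overlap between groups. GSTF4 had 3.44 and 3.43 FPKM in WT against 0.90 and 1.76 FPKM in ibm1-3, and fell by 0.95 ± 0.17 (adjusted p = 0.00153; passed only without ibm1-3 replicate 2, 0.0426). GSTU3 had 9.80 and 8.45 FPKM in WT against 5.74 and 5.17 FPKM in ibm1-3, and fell by 0.65 ± 0.11 (adjusted p = 0.000943; 0.239 to 0.406 with a library left out). In GSTF4 and GSTU3 as well, both ibm1-3 libraries were the lower ones. AT5G44000, a glutathionyl-hydroquinone reductase gene, had 31.6 and 38.6 FPKM in WT against 23.1 and 27.9 FPKM in ibm1-3, and fell by 0.45 ± 0.07 (adjusted p = 0.000666). GSTU27 had 28.4 and 29.8 FPKM in WT against 25.6 and 21.7 FPKM in ibm1-3, and fell by 0.29 ± 0.09 (adjusted p = 0.0187). Neither of these passed with a library left out (0.369 to 0.686 and 0.549 to 0.801).

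The other members that rose did so by less than 1 on the log2 scale. AT4G19880, another hydroquinone reductase gene, changed by 0.87, GSTU24, an enzyme that acts on the explosive TNT, by 0.76, and GSTU7 by 0.68. The hydroquinone reductase genes AT5G44990 and AT5G45020 changed by 0.62 and 0.54, and the peroxisomal GSTT1 by 0.50. GSTU5, AT5G45020, GSTU9 and AT5G42150 rose as deposited and did not pass with size factors, with AT5G42150 turning to -0.02. The 13 members that did not pass lay between -0.40 and 0.11. Among them was GSTL3, a lambda enzyme with thiol transferase activity and one of the 5 most abundant members, with 314 and 294 FPKM in WT against 354 and 304 FPKM in ibm1-3 (0.11 ± 0.06, adjusted p = 0.137). GSTL3 turned to -0.21 with size factors, and 8 of the 13 passed as lower in that scaling. Each replicate number is a table, and without the replicate block 14 of the 31 calls were kept, while 21 of them were lost in every fit with a library left out. The fits with 3 libraries have no block and take in differences between separately normalized tables, so a call lost there is not tied to the missing library.

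In low light, where each genotype had a single library, nothing was tested and intervals hold counting error alone, and the members' ratios were wide. Of 40 members that reached 50 reads in the libraries together, 7 were at least 2-fold higher in ibm1-3 (17.5%, against 5.68% of 16509 genes) and 10 at least 2-fold lower (25%, against 9.73%). Among the 7 are the phi gene GSTF5 and the tau gene GSTU15, which reached 50 reads through ibm1-3 alone, so neither is support for a rise. The members' median size of change, whatever the direction, was 0.77 on the log2 scale, beside 0.34 for all genes. Their median ratio was -0.01 beside 0.01. Phi genes were mostly lower, with 5 of 9 at least 2-fold lower and 2 higher, and tau genes were split, with 5 lower and 5 higher of 19. Summed deposited signal per kilobase over the 50 members was 9566 in WT and 6578 in ibm1-3, a ratio of 0.69, and 0.58 for phi genes. With total reads in place of TMM scaling the median of all genes moved from 0.01 to 0.27, and 12 members were then at least 2-fold higher (30%, against 9.63% of all genes) and 7 lower (17.5%, against 6.94%), so the balance of the 2 directions depends on the scaling.

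The members that were higher in low light were mostly tau genes. GSTU11 had 67 reads in WT against 397 in ibm1-3, a log2 ratio of 2.52 (95% Clopper-Pearson interval 2.17 to 2.94). GSTU8 had 78 and 355 reads, a ratio of 2.15 (1.80 to 2.53). GSTU20 had 1813 and 3805 reads and GSTU19 had 3710 and 7751, with ratios of 1.04 (0.96 to 1.13) and 1.04 (0.98 to 1.09). These tandem neighbours had nearly the same ratio in low light. GSTF5 and GSTU15 were listed at 0 in WT, where fewer than 15 reads are not shown, and had 72 and 71 reads in ibm1-3. Their log2 ratios were at least 2.26 and 2.24 when WT is set to 14 reads. Both reached the minimum of 50 reads through ibm1-3 alone. GSTF11, a phi gene linked to aliphatic glucosinolates, had 91 and 295 reads, a ratio of 1.66 (1.33 to 2.03). However, 89.27% of its 50-base runs also occur in other RefSeq transcripts on either strand, most of all that of AT3G03200. Its deposited fragments in high light pair 1 were whole numbers (42 and 49), and whether reads of these genes were mixed is not known. In high light GSTF11 had 3.77 and 5.56 FPKM in WT against 4.27 and 5.22 FPKM in ibm1-3, with overlapping groups and no call (adjusted p = 0.819).

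The members that were lower in low light included 4 of the 5 most abundant phi genes there. GSTF2 had 34761 reads in WT against 13371 in ibm1-3, a log2 ratio of -1.40 (-1.43 to -1.37). GSTF8 had 17514 and 5533 reads, a ratio of -1.69 (-1.73 to -1.64). GSTF7 had 14527 and 5114 reads, a ratio of -1.53 (-1.58 to -1.49). Its copy GSTF6 had 20928 and 20553 reads, so these near-identical neighbours were apart in low light, with GSTF6 at -0.05 (-0.08 to -0.02). GSTF10 had 11129 and 4628 reads, a ratio of -1.29 (-1.34 to -1.24), and its neighbour GSTF9 had 7398 and 6762 reads, a ratio of -0.15 (-0.20 to -0.11). With total reads GSTF6 turned to 0.21 and GSTF9 to 0.11. Among tau genes GSTU17 had 354 and 85 reads, a ratio of -2.07 (-2.44 to -1.74). GSTU13 had 11130 and 3670 reads, a ratio of -1.63 (-1.68 to -1.57), and GSTU18 had 238 and 95 reads, a ratio of -1.34 (-1.71 to -1.0). The auxin-induced gene GSTU5, with 14959 and 7116 reads, stood at -1.10, and GSTF3 and GSTU23 were the other members at least 2-fold lower. The mesophyll markers were lower in the same library, with 26424 reads in sum against 81896 in WT.

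Other members named in high light changed less in low light. GSTU16 had 1090 and 1599 reads, a ratio of 0.53 (0.42 to 0.64), and GSTZ1 had 2130 and 2616 reads, a ratio of 0.27 (0.19 to 0.35). GSTL3 had 3747 and 3776 reads (-0.01), GSTU3 had 128 and 125 reads (-0.06), AT5G44000 had 524 and 556 reads (0.06) and GSTU27 had 434 and 548 reads (0.31). GSTL3 and GSTU3 were above 0 with total reads, at 0.25 and 0.20. GSTF4 was listed at 0 in both libraries and GSTU6 had 22 reads in WT and was listed at 0 in ibm1-3, both under the minimum.

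Over the 3 pairs of libraries, the 40 members followed no single direction. In all 3 pairs 12 were higher in ibm1-3 (30%, against 30.6% of 15851 genes) and 7 lower (17.5%, against 16.9%). Lower in low light and higher in both high light pairs were 11 (27.5%, against 28.1%), and higher in low light and lower in both high light pairs were 5 (12.5%, against 15.9%). Each share lay near that of all genes. By at least 1.5-fold in each pair, GSTF5, GSTU24, GSTU15, GSTU11, GSTU20, GSTU7 and GSTU8 were higher (17.5% of the members, against 5.07% of all genes), 6 of them tau genes. GSTU18, GSTF8 and GSTF2 were lower (7.5%, against 2.74%). GSTF5 and GSTU15 met the minimum levels through the ibm1-3 libraries alone. Of the 50-base runs of the GSTU7 transcript 55.73% also occur in other RefSeq transcripts on either strand, most of all that of AT2G08340. The deposited fragments of GSTU7 in high light pair 1 were whole numbers (441 and 699), and whether reads of these genes were mixed is not known. GSTF10 alone was at least 2-fold lower in low light (-1.29) and at least 2-fold higher in both high light pairs (1.87 and 1.83). GSTU13, with -1.63 in low light and 0.92 and 0.99 in high light, stood just under that fold, and GSTF7 and GSTU5 had the same pair of signs. Low and high light libraries differ in age and were normalized apart, so the difference between them was not tested.

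**Figure D3:**
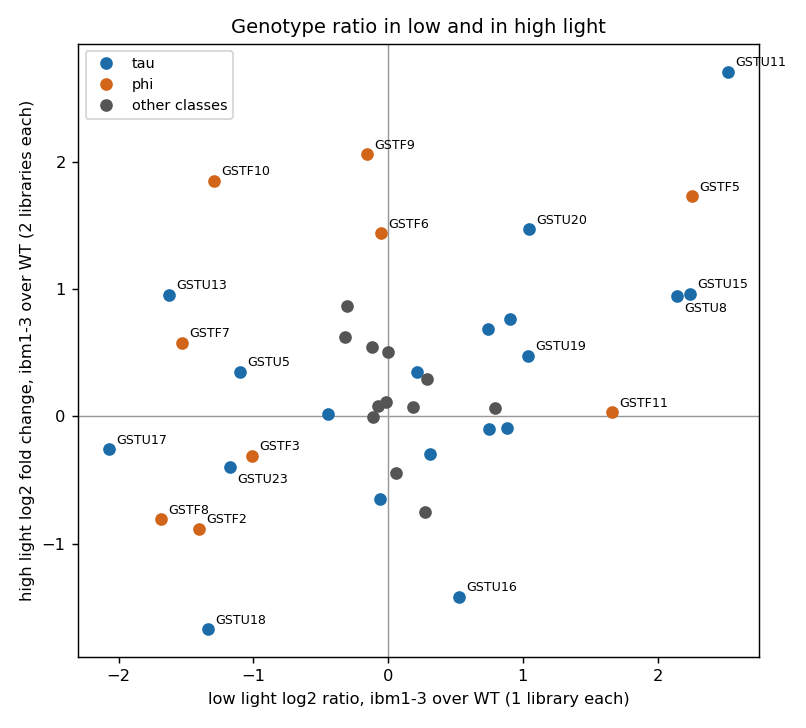
High light log2 fold change (2 libraries per genotype) against low light log2 ratio (1 library per genotype) of the 40 members with both, ibm1-3 over WT, tau in blue, phi in orange and other classes in grey. GSTF10 (-1.29 and 1.85) and GSTU13 (-1.63 and 0.96) lie at upper left, GSTU11 (2.52 and 2.71) at upper right, and GSTF2, GSTF8 and GSTU18 at lower left; GSTF5 and GSTU15 are lower bounds on the horizontal axis.

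The members lie largely in tandem, and neighbours often differed. With gaps of at most 10000 bases, 33 of the 50 members fell into 12 arrays. In the array of GSTF7, GSTF6, GSTF5 and GSTF4 on chromosome 1, the first 3 rose in high light (0.58, 1.44 and 1.73) and GSTF4 fell (-0.95). GSTU15 and GSTU16, with 83.5% of coding bases in common and 4911 bases apart, stood at 0.96 and -1.42 in high light. GSTF5 and GSTU15 were tested only because they were high in ibm1-3. Their rises are therefore no support for a difference between neighbours. The longest array, of 7 tau genes from GSTU7 to GSTU1 on chromosome 2, held 3 that rose (GSTU7 0.68, GSTU6 1.07, GSTU5 0.35), 1 that fell (GSTU3 -0.65), 2 that did not pass and 1 not tested. The theta array held GSTT1, which rose, and GSTT3 and GSTT2, which share 91.2% of coding bases and stood at 0.07 and 0.06. GSTZ2 stood at 0.11 beside GSTZ1, and its WT libraries differed widely, at 0.10 and 5.66 FPKM. GSTF3, on another chromosome than its closest copy GSTF2 (94.5% of coding bases), did not pass in high light (-0.31) and stood at -1.01 in low light. In 11 members the deposited fragments were not whole numbers, as in 16.2% of all genes, so reads shared between genes had been divided. GSTF2, GSTF3, GSTF6, GSTF7 and all theta genes were among them. GSTF10, GSTU3, GSTU4 and GSTU27 were too but lay close to whole numbers. GSTF10 had 2663.99 fragments in WT and 10091 in ibm1-3 in pair 1. Between all pairs within a class the median coding identity was 54.3% for phi and 57.0% for tau genes.

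**Figure D4:**
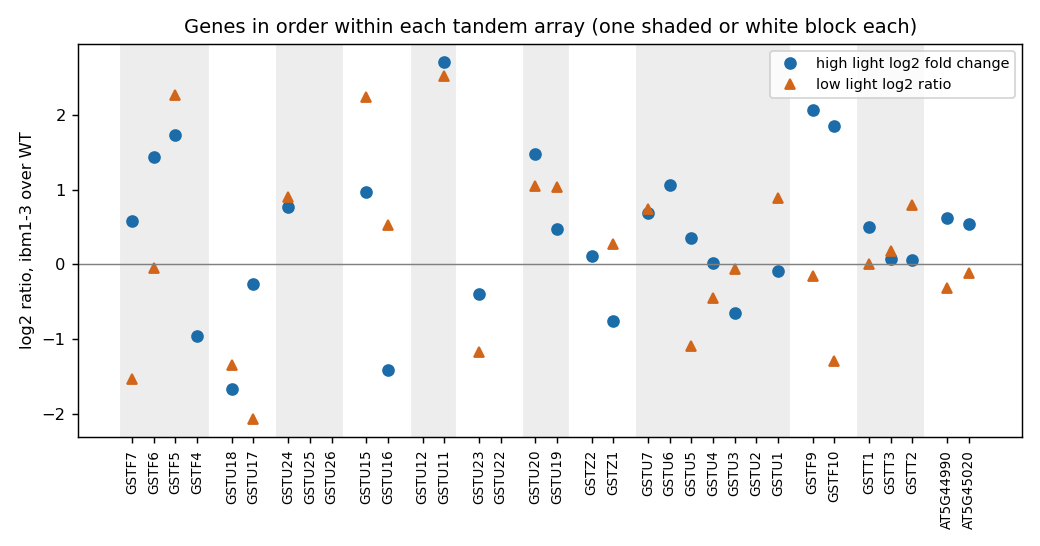
High light log2 fold change (circles) and low light log2 ratio (triangles) of the 33 members in tandem arrays, in genome order, each array a shaded or white block, with no mark where a gene was under the minimum. GSTU15 and GSTU16 lie on opposite sides of 0 in high light, and GSTF10 has its 2 marks at 1.85 and -1.29.

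Relatives and partners of the members are described by counts. The DHARs, which recycle ascorbate with glutathione, differed by isoform: DHAR1 rose by 1.86 and DHAR2 by 0.86, while the plastid form DHAR3 fell by 0.93. DHAR1 had 151 and 230 FPKM in WT against 511 and 905 FPKM in ibm1-3, and at 6728 and 6562 reads in low light. The lambda gene GSTL1 had 0.85 and 1.70 FPKM in WT against 13.5 and 19.1 FPKM in ibm1-3, a rise of 2.93 ± 0.12 (adjusted p = 5.07e-07), and GSTL2 fell by 0.45. Of 13 tested genes of glutathione synthesis and turnover 8 rose, 4 fell and 1 did not pass (7 and 5 with size factors). Their median was 0.80 beside 0.25 for all genes. Among all genes 49.2% rose and 26% fell (35.4% and 38.7% with size factors). Glutathione synthetase GSH2 rose by 1.56 and the gamma-glutamyl transferase GGT1 by 1.39, while the plastid glutathione reductase GR2 fell by 1.62. In low light GGT1 had 5538 reads in WT against 676 in ibm1-3, a log2 ratio of -3.06, opposite to high light. GSH2 (-0.63) and GR2 (0.21) also had the opposite sign there.

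Glutathione peroxidases, which reduce peroxides and in plants use thioredoxin, mostly fell in high light. Of 7 tested 5 fell, 1 rose and 1 did not pass (6 fell with size factors). Their median was -0.98. Among all genes 26% fell and 49.2% rose (38.7% and 35.4% with size factors). The plastid forms GPX7 and GPX1 had log2 changes of -3.49 and -3.21, and GPX2, which is not a plastid form, one of -1.42. GPX7 had 80.2 and 250.1 FPKM in WT against 6.16 and 21.6 FPKM in ibm1-3. Of 4 transporters of the ABCC family, which includes carriers of glutathione conjugates and other compounds, ABCC3 rose by 0.89 and ABCC4 by 0.65. The other 2 did not pass, among them ABCC2 (0.17). Of 14 genes of the TGA and SCL14 detoxification pathway 5 rose, 5 fell and 4 did not pass (4 and 9 with size factors). Their median was -0.08. The ABCC and TGA counts stand beside the same shares of all genes, 49.2% higher and 26% lower, and are not read as a result about these genes. The regulators TGA2, TGA5, TGA6 and SCL14 were those that did not pass. The targets OPR1 and OPR2 rose by 2.29 and 2.02, and the glucosyltransferase UGT74E2 fell by 2.29. In low light OPR1 (6686 reads in WT and 2652 in ibm1-3) and UGT74E2 (18 and 114) went the other way, with log2 ratios of -1.36 and 2.57. OPR2 was higher there too (178 and 838 reads, 2.20). The fall of mesophyll markers and of CCA1 accompanied these groups, and its part in them was not tested.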

How the data were processed

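Rosette leaf RNA was sequenced in 6 libraries, and the authors deposited 3 tables. The submitters' processing notes list Bowtie2 and TAIR10. The counting program and its strand setting are not given in the sources. Per the file headers, pair 1 of high light was deposited as FPKM beside estimated counts (fragments) and gene length. The table of pair 2 holds deposited values that behave as FPKM, with no counts and no depth. In both, a value of 0.01 was set to 0. For low light the authors deposited a normalized signal for each gene. Its nonzero values were whole multiples of 1 step per library (100% within 0.01 steps), which gave reads, and genes under 15 reads are listed at 0.

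The members and gene lists were chosen with earlier results of these data known. Members were matched by identifier in all 3 tables and in RefSeq (50 of 50), and deposited coordinates of all 50 lay within RefSeq TAIR10.1 gene bounds. Pair 1 was given number 1 because the label naming its table does, although description labels of some samples disagree with titles. In the table of pair 2, 1003 identifiers with a suffix were left out, and 21437 genes were shared.

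High light was tested on log2(FPKM + 1) with limma 3.58.1 (R 4.3.3, trend on), in place of edgeR, since counts were held for one pair. Genes with at least 1 FPKM in 2 libraries were fitted, with the replicate number as a block, each number being a table of its own. The fit has 1 residual and 6.17 prior degrees of freedom, and p-values are two-sided with Benjamini-Hochberg adjustment over 17399 genes. Fold changes on this scale understate low genes. Same-numbered libraries deviated together from their group means (correlation of 0.89 across genes), so the numbers were taken as pairs. In low light, TMM factors from edgeR 4.0.16 scaled the reads, a prior count of 1 was added, at least 50 reads over both libraries were required, and intervals are exact 95% binomial intervals (Clopper-Pearson). PCR reads are not independent molecules, so they cover counting error only. On simulated data the limma fit recovered the changed genes but made more false calls than its nominal rate, so adjusted p-values near the threshold may be too small. Coding identity came from global alignments (Biopython 1.88) and shared sequence from runs of 50 bases of RefSeq transcripts.

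Values in every library are given for the 10 members with the highest and the 10 with the lowest fold change past the threshold in high light, the 5 most abundant, the 5 highest and 5 lowest in low light with at least 100 reads, and those at least 2-fold in opposite directions. From each list outside the members up to 3 genes with the smallest p are named. DHAR and lambda genes, GSTF3, GSTZ2, GSTT3, GSTT2 and GSTU5 were added after their values were seen. So were, in low light, GSH2, GR2, GGT1, GPX1, GPX2, GPX7, OPR1, OPR2, UGT74E2 and the guard cell and vessel markers. Alternatives covered the block, pseudocount, filters, scaling and each library left out.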

Additional observations from a re-analysis of the deposited data

Results flagged for a closer look

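GSTF10 moved in opposite directions in the 2 light conditions, with a high light log2 fold change of 1.85 and a low light log2 ratio of -1.29. GSTU13 did so as well, at 0.96 in high light and -1.63 in low light. In both genes the 2 high light pairs were higher in ibm1-3 and the single low light pair was lower. The difference between the light conditions was not tested, since the conditions also differ in age and low light has 1 library per genotype.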

How the results depend on the processing

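Without the replicate block, 11 members were higher and 3 lower in high light, against 21 and 10 with it, and 4622 of all genes passed against 13087. With a library left out and no block, 3 to 5 members were higher and 0 to 3 lower, 1629 to 3312 genes passed, and the members' median was 0.20 to 0.26. With size factors the median turned to -0.14 and 18 members were lower, GSTL3 turned to -0.21 and GSTF11 to -0.24. The median was 0.21 and 0.19 with pseudocounts of 0.1 and 0.5, and 0.20 with no filter. Left-out libraries turned GSTF8 (-1.65 to 0.030; 0.030 without ibm1-3 replicate 1), GSTU17 (-0.77 to 0.26; 0.26 without WT replicate 2, 0.18 without ibm1-3 replicate 1), GSTF11 (-0.20 without WT replicate 1, -0.09 without ibm1-3 replicate 2) and GSTF7 (-0.14 to 1.303; -0.14 without ibm1-3 replicate 2). With total reads in low light, 12 members were at least 2-fold higher and 7 lower, and the median was 0.26. Over the 3 pairs, 7 members were higher and 3 lower by at least 1.5-fold in each. With size factors 8 were higher in each, against 12 as deposited, and 11 were lower in each, against 7. The cause of these shifts was not tested. The 24 named members kept direction and call with pseudocounts of 0.1 and 0.5 and with no filter. Depth limits GSTF5, GSTU15 and GSTU6, and that of pair 2 is unknown.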
